A study of Mus musculus with 14 samples.

Results

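The hypoxia response genes described here are Hif1a, Egln1, Egln3, Vegfa, Adm, Bnip3, Ankrd37 and Car9, 8 of the 36047 genes in the deposited count tables of differentiating mouse embryoid bodies. They were taken as a named list, found by matching the Ensembl gene identifiers to mouse symbols, and all 8 were found in both tables and passed the filter on low counts in both. The study compared embryonic stem cells carrying iHA-Foxk1, which served as the control, with cells labelled Foxk1 KO, for a knockout of the forkhead transcription factor gene Foxk1. Both were grown on irradiated feeder fibroblasts, freed of them by plating, and then shaken as embryoid bodies in a medium for mesoderm. RNA was sequenced from whole embryoid bodies of both lines at days 3, 5 and 10, and at day 10 also from Foxk1 KO embryoid bodies labelled IWR1, a name known for a small molecule that blocks Wnt signalling by stabilising Axin. Each of the 7 groups had 2 libraries, 14 in all.

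The protocol describes 1 control line, iHA-Foxk1, for all 3 days and 1 KO line, so an effect of losing Foxk1 and any other difference between the lines cannot be told apart. The control titles carry iHAFoxk1 and the letters ND at days 3 and 5 and only the word Control at day 10, and no KO title carries ND. The sources used here do not give what iHA or ND stands for, whether any inducer was used, or the dose and timing of IWR1. No treatment with low oxygen is described in the labels, so the genes are followed here through differentiation and not through an oxygen challenge. Nothing in the labels ties the 2 libraries of a group to separate cultures, so the p-values speak only of the spread between libraries, and that spread may be technical. In bulk RNA, fewer cells of a type and less RNA per cell cannot be told apart.

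Cells sense oxygen through prolyl hydroxylases, which use oxygen to modify the alpha subunits of hypoxia-inducible factor (HIF) so that the VHL ubiquitin ligase removes them. When oxygen falls, HIF alpha escapes, pairs with its partner Arnt, and binds a short core sequence beside genes of blood vessel growth, glycolysis and mitochondrial turnover. The alpha subunit Hif1a is regulated mostly at the protein level, so its RNA is not a readout of HIF activity. In the embryo this pathway is known for its part in forming vessels, blood and heart.

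Total counts ran from 10574194 to 11621032 per library at days 3 and 5 and from 34466708 to 52747273 at day 10. The 2 tables were fitted separately, so levels were tested within a table only. Foxk1 itself, as a check of the labels, fell in the KO at day 3 (log2 difference -2.32, adjusted p = 2.22e-07) and at day 5 (log2 difference -1.90, adjusted p = 4.91e-07). The day 10 control had 65.0 and 80.1 CPM of Foxk1, the count scaled to the size of the library, and the KO had 71.3 and 41.8 CPM (-0.36 ± 0.39, adjusted p = 0.722), so the day 10 samples are called the libraries labelled Foxk1 KO. No 2 libraries of a group agreed within sampling noise. In the day 3 and 5 fit, 23.6% of genes differed by more than 1.4-fold between the day 5 KO libraries. The share was 11.5% for the day 3 control, 10.7% for the day 3 KO and 12.4% for the day 5 control. The groups of a fit shared 1 estimate of the spread.

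In mm10, Hif1a lies at chr12:73901375-73947530 and Egln3 on the same chromosome at chr12:54178981-54203860, both coding genes like the other 6. Egln1 lies at chr8:124908587-124949324 and Ankrd37 at chr8:45996902-46005707. Vegfa lies at chr17:46016993-46032369, Adm at chr7:110627661-110629820, Bnip3 at chr7:138890836-138909519 and Car9 at chr4:43506966-43513729. Hif1a, Adm and Car9 are on the plus strand and the other 5 on the minus strand.

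The promoters of 5 of the genes are shown: Adm, Vegfa and Egln3 because they passed the test in the most contrasts, and Bnip3 and Ankrd37 because they held the most matches to the core that HIF binds. Each is the stretch of 250 bases before the RefSeq start site in GRCm38.p6, written 5′ to 3′ on the gene's strand. Capitals mark each match to the HIF core, searched as ACGTG or GCGTG on both strands, so that CACGT and CACGC are matches read on the other strand. The windows were chr7:110627407-110627656 on the plus strand for Adm, chr17:46032378-46032627 on the minus strand for Vegfa, chr12:54203875-54204124 on the minus strand for Egln3, chr7:138909507-138909756 on the minus strand for Bnip3, and chr8:45999851-46000100 on the minus strand for Ankrd37.
Adm: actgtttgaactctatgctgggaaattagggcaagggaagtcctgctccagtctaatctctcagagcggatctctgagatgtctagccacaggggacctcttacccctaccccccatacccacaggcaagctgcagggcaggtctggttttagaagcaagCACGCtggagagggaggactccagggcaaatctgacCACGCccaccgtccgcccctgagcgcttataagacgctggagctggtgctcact
Vegfa: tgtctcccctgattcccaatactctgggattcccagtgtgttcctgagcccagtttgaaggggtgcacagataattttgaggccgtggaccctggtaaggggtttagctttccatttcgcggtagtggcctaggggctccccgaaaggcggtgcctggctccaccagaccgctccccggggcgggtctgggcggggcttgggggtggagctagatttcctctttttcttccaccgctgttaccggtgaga
Egln3: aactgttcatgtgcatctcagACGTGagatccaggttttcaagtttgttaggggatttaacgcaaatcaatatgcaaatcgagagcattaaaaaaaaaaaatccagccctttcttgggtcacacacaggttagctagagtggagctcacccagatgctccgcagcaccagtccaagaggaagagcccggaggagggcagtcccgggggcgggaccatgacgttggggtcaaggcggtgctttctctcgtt
Bnip3: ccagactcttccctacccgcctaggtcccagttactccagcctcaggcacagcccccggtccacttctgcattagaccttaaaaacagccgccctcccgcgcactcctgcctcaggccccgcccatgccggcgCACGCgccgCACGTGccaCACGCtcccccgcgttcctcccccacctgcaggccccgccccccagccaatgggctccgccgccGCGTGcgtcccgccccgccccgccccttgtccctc
Ankrd37: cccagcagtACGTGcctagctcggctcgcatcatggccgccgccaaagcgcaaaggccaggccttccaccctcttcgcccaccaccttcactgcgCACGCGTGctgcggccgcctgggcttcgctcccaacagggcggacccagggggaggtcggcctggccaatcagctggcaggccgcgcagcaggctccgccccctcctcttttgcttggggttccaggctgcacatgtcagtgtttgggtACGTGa
Bnip3 held 5 matches and Ankrd37 held 4, some of them sharing bases. Adm held 2, both of the GCGTG kind, and Egln3 held 1. The first start site of Vegfa held 0, and its second RefSeq start, inside the gene, held 2. Of the 250 bases before that second start, 218 are annotated as Vegfa exon. The windows of Ankrd37 and Hif1a also lie inside the positions given above for these genes. Annotated exon of the same gene covers 17 bases of the Ankrd37 window, 13 for Bnip3, 70 for Egln1 and 60 for Car9. Among the others, Hif1a held 3, Egln1 held 2 and Car9 held 1. Such a match is common: 38.6% of 32851 promoters of this length held at least 1, and 16.6% held the ACGTG form. The forkhead letters TGTTTAC, searched on both strands, were in 0 of these promoters and in 3.17% of all. A match is a description of letters, and these windows leave out distant enhancers.

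Levels per kilobase use the merged length of all annotated exons of a gene, not the length of a single transcript. On this scale Hif1a had the highest group mean of the genes in all 4 groups of days 3 and 5. Its means ran from 27.6 to 39.1 CPM per kilobase. Vegfa changed its rank with the day: at day 3 its means were 2.86 and 5.39 CPM per kilobase in control and KO, below Bnip3 (15.5 and 11.4) and Egln1 (9.13 and 9.93), and at day 5 they were 26.8 and 16.9, above both. Ankrd37, Car9 and Adm stayed at group means of 0.192 to 1.56 CPM per kilobase on these days. At day 10 Bnip3 led in the control (87.7) and with IWR1 (93.0), while in the libraries labelled KO Hif1a (47.2) and Bnip3 (44.6) were close. Adm and Ankrd37 had day 10 means of 1.83 to 8.95 CPM per kilobase, and Car9 was the lowest, at 0.352 to 0.635. Because the tables were made and scaled separately, the step from day 5 to day 10 was not tested.

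**Figure D1:**
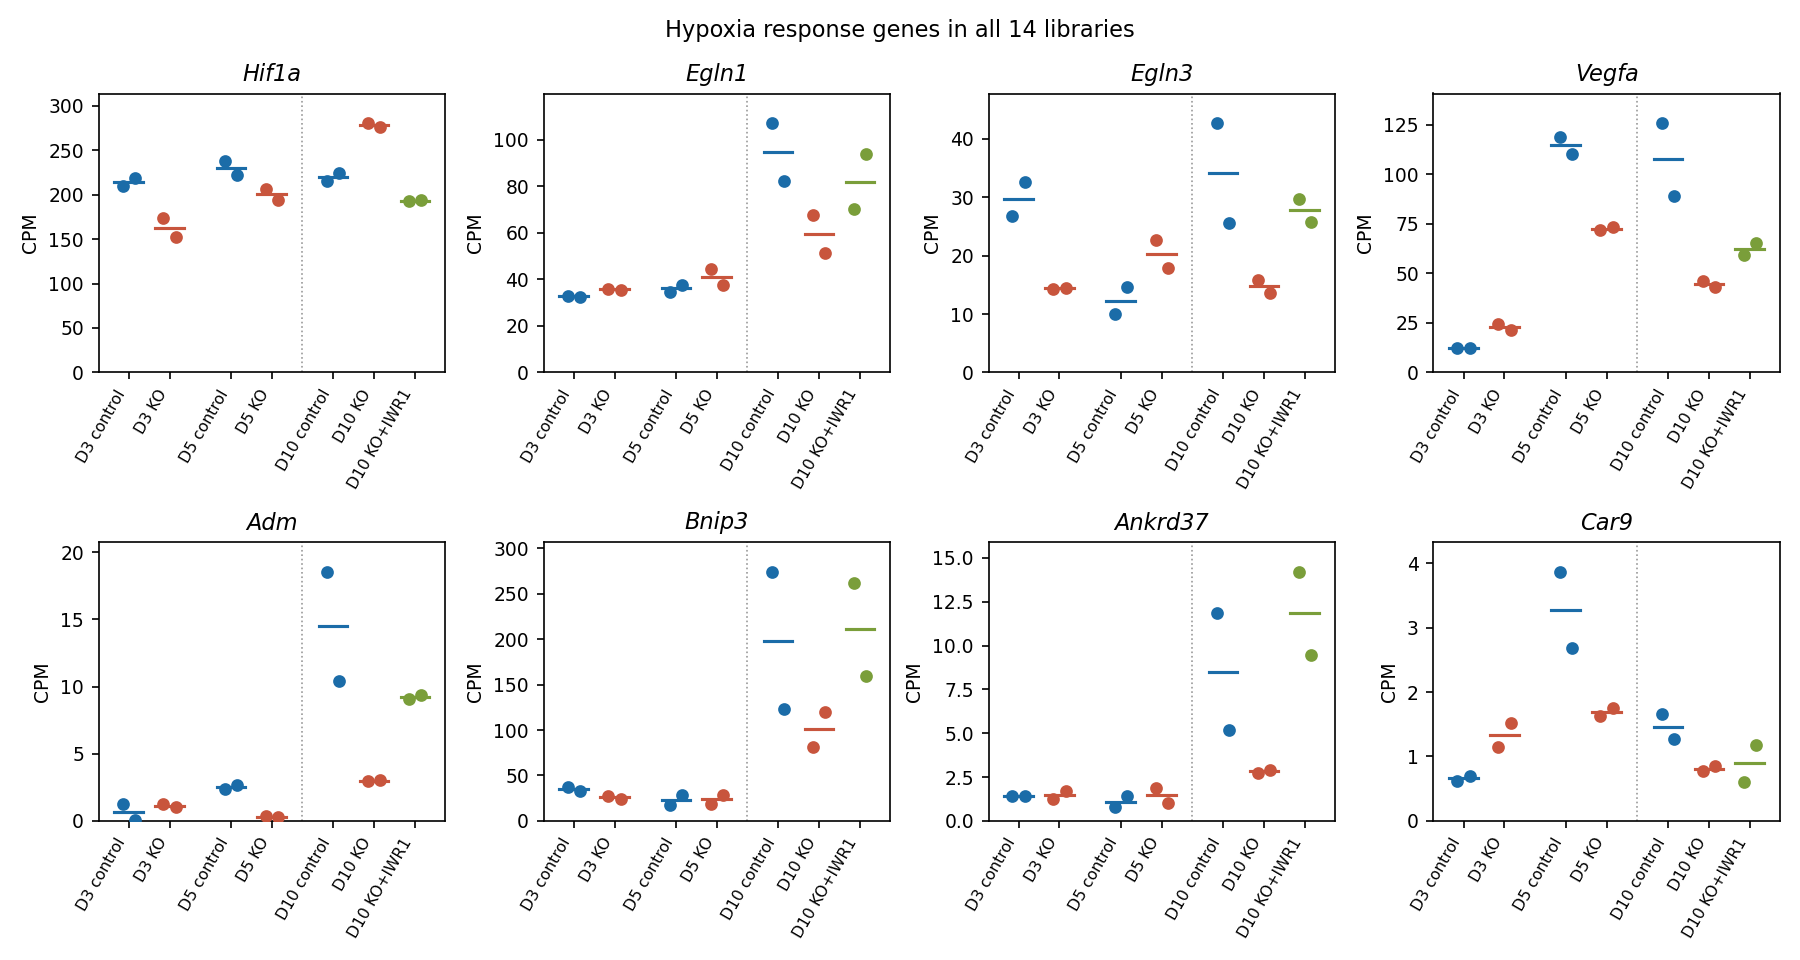
Level of each gene in every library, in CPM after TMM scaling, by group; points are single libraries, lines are group means and the dotted line divides the separately scaled tables. Vegfa in the control rises from 12.2 CPM at day 3 to 115 CPM at day 5, and at day 10 the libraries labelled Foxk1 KO have the lowest group mean for 7 of the 8 genes, with Hif1a highest there.

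The first comparison asked how the genes differed between control and KO at day 3, when embryoid bodies begin to form mesoderm. Vegfa was higher in the KO, while Egln3 and Hif1a were lower; the other 5 genes did not pass the test. Over all genes tested, 32.9% passed, so 3 of 8 is close to that background. The libraries of the groups did not overlap for 6 of 8, as in 74.6% of all genes. The median log2 difference of the genes was 0.09, against -0.01 for all genes tested.

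Hif1a, the oxygen-regulated alpha subunit, stood at 209 and 218 CPM in the day 3 control and at 174 and 152 CPM in the KO. The groups did not overlap, and the KO was lower by a small step (log2 difference -0.39 ± 0.07 SE, adjusted p = 0.00283, edgeR quasi-likelihood test). Egln1, the main prolyl hydroxylase that marks HIF alpha for removal, stood at 33.0 and 32.6 CPM in the control and at 35.9 and 35.5 CPM in the KO (0.12 ± 0.10, adjusted p = 0.386). Its groups did not overlap, but their gap was small and did not pass.

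Egln3, a prolyl hydroxylase that is itself a HIF target and so closes a feedback loop, stood at 26.9 and 32.6 CPM in the day 3 control. In the KO it stood at 14.3 and 14.5 CPM, below both control libraries (-1.04 ± 0.19, adjusted p = 0.00267). Vegfa, the growth factor that drives blood vessel formation, went the other way, from 12.3 and 12.2 CPM in the control to 24.6 and 21.6 CPM in the KO (0.92 ± 0.10, adjusted p = 1.40e-04). Both KO libraries were above both controls. These calls, with that of Hif1a, held in each alternative run.

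Adm, which encodes the vessel-dilating peptide adrenomedullin, was near the floor of detection at day 3. It had 14 and 1 counts in the control libraries and 14 and 12 in the KO, and the groups overlapped (0.76 ± 0.75, adjusted p = 0.475). Without control library 1 the difference rose to 3.51 and passed (adjusted p = 0.0363), so that value rests on the control library with 1 count. Bnip3, an outer-membrane protein that tags mitochondria for removal, stood at 36.8 and 33.2 CPM in the control and at 27.3 and 24.4 CPM in the KO (-0.44 ± 0.25, adjusted p = 0.238). Its groups did not overlap, and with only the compared groups in the fit it passed (-0.44, adjusted p = 1.14e-04, edgeR quasi-likelihood test). It did not pass in the other alternative runs. Ankrd37, a small ankyrin-repeat protein induced by HIF, stayed between 1.24 and 1.69 CPM in all 4 libraries (0.06 ± 0.46, adjusted p = 0.941). Car9, a membrane carbonic anhydrase that buffers acid, stood at 0.616 and 0.704 CPM in the control and at 1.15 and 1.52 CPM in the KO (1.01 ± 0.45, adjusted p = 0.113), without overlap.

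At day 5 the direction had turned for Vegfa and Egln3. Vegfa, Adm and Hif1a were lower in the KO and Egln3 was higher, so that 4 of 8 passed the test, against 43.5% of all genes. The groups did not overlap for 5 of 8, as in 70.6% of all genes. The median log2 difference of the genes was -0.07, against 0.01 for all genes tested.

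Hif1a stood at 238 and 222 CPM in the day 5 control and at 207 and 194 CPM in the KO, again without overlap (-0.20 ± 0.07, adjusted p = 0.0462). This call was near the threshold. It was lost with DESeq2 (adjusted p = 0.134), with only the compared groups in the fit (0.0806), and without control library 1 (0.252) or control library 2 (0.0686). Egln1 stood at 34.4 and 37.8 CPM in the control and at 44.2 and 37.6 CPM in the KO, and its groups overlapped (0.18 ± 0.10, adjusted p = 0.171).

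Egln3 was now lower in the control, at 10.0 and 14.6 CPM, than in the KO, at 22.7 and 17.9 CPM (0.72 ± 0.20, adjusted p = 0.0155). The call was lost without control library 1 (log2 difference 0.47, adjusted p = 0.121) and with only the compared groups in the fit (0.0611). Vegfa reached 119 and 110.3 CPM in the control and 71.8 and 73.4 CPM in the KO (-0.66 ± 0.08, adjusted p = 1.66e-04). Both KO libraries were below both controls, and the call held in each alternative run.

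Adm had 24 and 27 counts in the day 5 control libraries and 4 and 3 in the KO libraries. Pooled over libraries, the level in the KO was 0.123 of that in the control, with an exact 95% interval of 0.0470 to 0.272 that covers counting error only. The fitted difference was -2.98 ± 0.79 (adjusted p = 0.0133), and it no longer passed without control library 1 (0.0572) or control library 2 (0.0669). Car9 stood at 3.87 and 2.68 CPM in the control and at 1.63 and 1.75 CPM in the KO (-0.95 ± 0.36, adjusted p = 0.0589), without overlap. Bnip3 ranged from 17.2 to 28.3 CPM over these 4 libraries (0.05 ± 0.27, adjusted p = 0.896) and Ankrd37 from 0.793 to 1.90 CPM (0.42 ± 0.49, adjusted p = 0.510), and for both the groups overlapped.

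The KO effect itself differed between the days for 4 of the 8 genes, against 24.2% of all genes tested. This was tested as the KO effect at day 5 minus that at day 3, and the libraries of the days are separate. For Vegfa the difference of effects was -1.58 ± 0.12 (adjusted p = 3.98e-05), and for Egln3 it was 1.76 ± 0.27 (adjusted p = 0.00168), and both held in each alternative run. For Adm it was -3.74 ± 1.10 (adjusted p = 0.0353) and for Car9 -1.96 ± 0.57 (adjusted p = 0.0349). The last pair of calls was less secure: Adm was lost with DESeq2 (0.0662) and without day 3 KO library 1 (0.128) or 2 (0.101) or day 5 control library 1 (0.0983) or 2 (0.105), and Car9 was lost with DESeq2 (0.210) and without day 3 control library 1 (0.118) or 2 (0.0968), day 3 KO library 1 (0.0697) or 2 (0.136), or day 5 control library 1 (0.134). The size of the Adm value rests on the day 3 control: it was -6.49 without its library 1, leaving the library with 1 count, and -2.85 without its library 2. The values of Bnip3 (0.49 ± 0.37), Ankrd37 (0.37 ± 0.67), Hif1a (0.19 ± 0.10) and Egln1 (0.06 ± 0.14) did not pass.

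**Figure D2:**
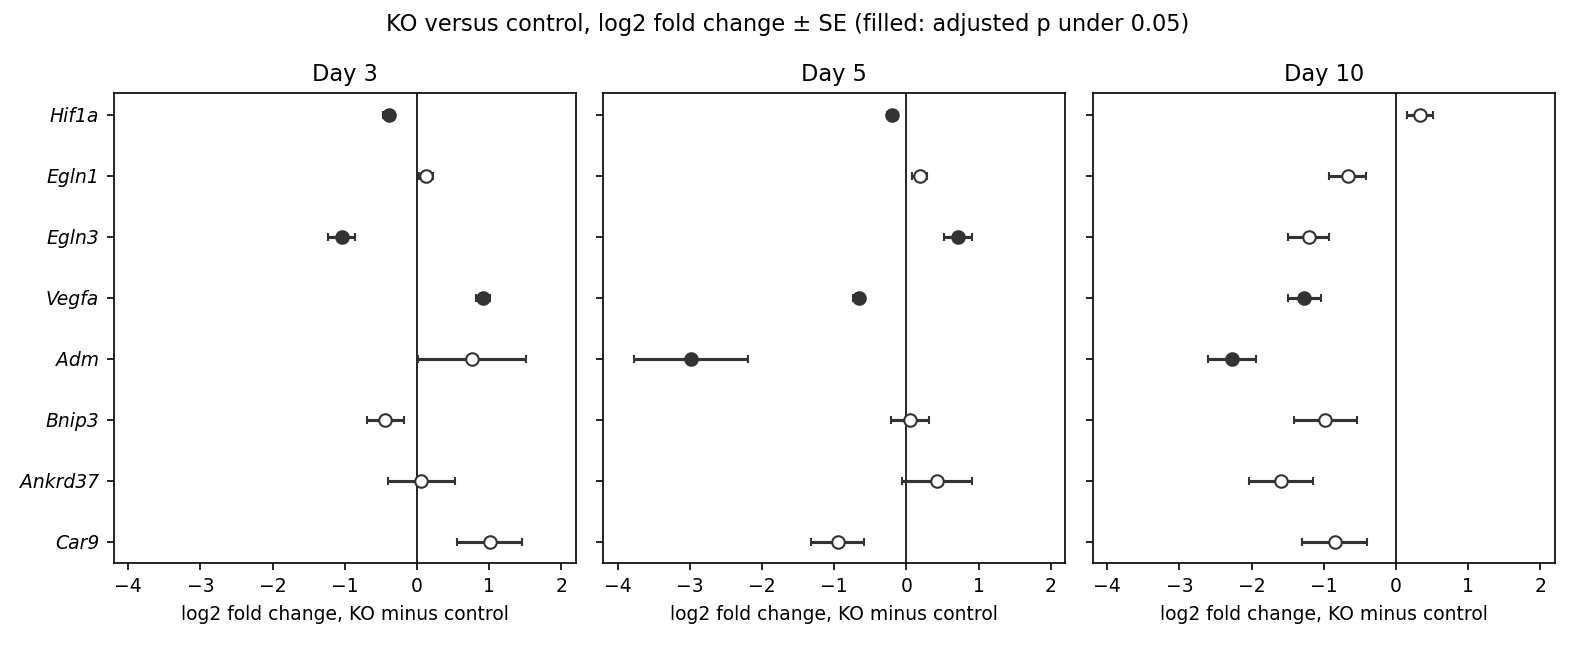
KO minus control log2 difference of each gene at days 3, 5 and 10, with bars of 1 standard error; filled points have an adjusted p under 0.05. Vegfa moves from 0.92 at day 3 to -0.66 at day 5, Egln3 moves from -1.04 to 0.72, and at day 10 every gene except Hif1a lies below 0.

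The course from day 3 to day 5 was then compared within each genotype. In the control, Vegfa rose 9.36-fold (log2 difference 3.23 ± 0.09, adjusted p = 2.47e-08), Car9 rose 4.89-fold (2.29 ± 0.41, adjusted p = 0.00104), and Egln3 fell to 0.414 of its day 3 level (-1.27 ± 0.19, adjusted p = 3.79e-04). Adm also rose in the control (1.92 ± 0.70, adjusted p = 0.0372), a call lost with DESeq2 (0.110), without day 3 control library 2 (1.03, 0.146) and without day 5 control library 1 (0.110) or 2 (0.139). Without day 3 control library 1 the rise of Adm was 4.67. Bnip3 (-0.62 ± 0.26, adjusted p = 0.0774), Ankrd37 (-0.36 ± 0.49), Egln1 (0.14 ± 0.10) and Hif1a (0.11 ± 0.07) did not pass. These 4 calls of 8 stand beside 60.8% of all genes tested, and days that did not overlap in 8 of 8 beside 83.9%.

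In the KO, Vegfa rose 3.14-fold from day 3 to day 5 (1.65 ± 0.08, adjusted p = 8.42e-07), starting higher and ending lower than in the control. Hif1a rose slightly (0.30 ± 0.07, adjusted p = 0.00627), a call lost without day 3 KO library 2 (0.0762). The KO values of Egln3 (0.49 ± 0.19, adjusted p = 0.0534), Adm (-1.82 ± 0.85, adjusted p = 0.0993) and Car9 (0.33, adjusted p = 0.501) did not pass, nor did those of Egln1 (0.20 ± 0.10), Bnip3 (-0.13 ± 0.26) and Ankrd37 (0.0017 ± 0.47). These 2 calls of 8 stand beside 53.8% of all genes tested, and days that did not overlap in 6 of 8 beside 77.2%.

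Ranked by mean level over these 4 groups, Vegfa was lowest in the day 3 control, then the day 3 KO, the day 5 KO and the day 5 control, with no neighbours overlapping. Car9 had the same order, also with no neighbours overlapping. For Hif1a the order from the lowest was day 3 KO, day 5 KO, day 3 control and day 5 control, without overlap between neighbours. For Egln3 it was day 5 control, day 3 KO, day 5 KO and day 3 control, and the lowest pair overlapped. Egln1, Bnip3, Ankrd37 and Adm each had at least 1 pair of overlapping neighbours.

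Cell type markers differed between control and KO at the same days. Markers counted as higher or lower are those that passed the test. The shares of all genes tested that passed were 32.9% at day 3 and 43.5% at day 5. At day 3, 7 summed primitive streak markers stood between 2416 and 2521 CPM in the control and between 213 and 260 CPM in the KO, and 7 of 7 were lower. At day 5 the direction had turned for these markers. They stood between 40.5 and 62.8 CPM in the control and between 168 and 335 CPM in the KO. The log2 difference was above 0 for 7 of 7, and 5 of them passed. Of the neural markers, 6 of 7 were higher in the KO at day 3. Of the epithelial markers, 6 of 7 were higher at day 5 and 1 was lower. At day 5, 7 summed blood markers stood between 1154 and 1199 CPM in the control and between 28.4 and 109 CPM in the KO. Spi1 was at 0 in at least 1 KO library. The log2 difference was below 0 for 6 of 6 blood markers tested, and 5 of them passed. The 7 pluripotency markers stood between 44.9 and 55.2 CPM in the day 5 control and between 235 and 436 CPM in the KO, and 7 of 7 were higher. The part of these differences in the results on the hypoxia response genes was not tested.

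At day 10 the genes stood lower in the libraries labelled Foxk1 KO, with Hif1a as the exception. The log2 difference was below 0 for 7 of 8, the median was -1.09 against 0.02 for all genes tested, and in 8 of 8 the groups did not overlap, as in 51.0% of all genes. Only Adm and Vegfa passed the test, 2 of 8 against 5.27% of all genes tested. The spread between libraries was wider in this table, with a coefficient of biological variation of 0.248 against 0.0915 at days 3 and 5.

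Adm stood at 18.5 and 10.4 CPM in the day 10 control and at 2.94 and 3.06 CPM in the libraries labelled KO. The KO was lower by 4.83-fold (-2.27 ± 0.33, adjusted p = 0.0181), and the call was lost without control library 1 (0.113) or KO library 2 (0.0737). Vegfa stood at 126 and 89.35 CPM in the control and at 46.0 and 43.3 CPM in the KO, a 2.41-fold lower level (-1.27 ± 0.23, adjusted p = 0.0306). This call was lost without control library 1 (0.237) or 2 (0.0825), and without KO library 1 (0.0637) or 2 (0.133).

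Egln3 stood at 42.7 and 25.6 CPM in the day 10 control and at 15.9 and 13.6 CPM in the KO (-1.21 ± 0.29, adjusted p = 0.0665). Ankrd37 stood at 11.8 and 5.16 CPM in the control and at 2.74 and 2.90 CPM in the KO (-1.59 ± 0.44, adjusted p = 0.0991). Neither passed in the edgeR quasi-likelihood test, and both passed with DESeq2 (adjusted p = 0.00265 for Egln3 and 0.00486 for Ankrd37) and with no filter on low counts (0.00483 and 0.00876). Ankrd37 overlaps Ufsp2 and Lrp2bp on the opposite strand, and the sources used here do not say whether counting used strand. Reads from any exon stretch that the genes share could therefore be misassigned, and the extent of such stretches was not measured. Ufsp2 stood at 25.0 to 36.9 CPM in the day 10 libraries and was highest in the KO libraries, where Ankrd37 was lowest.

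Bnip3 stood at 274 and 123 CPM in the day 10 control and at 81.4 and 120.4 CPM in the KO (-0.98 ± 0.44, adjusted p = 0.291). The groups did not overlap, but the lower control library and the higher KO library were close. The 3 near-identical pseudogene copies of Bnip3 held at most 0.047 CPM in a library. Without control library 1 the day 10 difference was -0.28 for Bnip3 and -0.87 for Ankrd37, and without control library 2 it was -1.44 for Bnip3 and -2.07 for Ankrd37. Egln1 stood at 107 and 82.2 CPM in the control and at 67.5 and 51.4 CPM in the KO (-0.67 ± 0.25, adjusted p = 0.208), and Car9 stood at 1.66 and 1.27 against 0.776 and 0.847 CPM (-0.85 ± 0.46, adjusted p = 0.384). Hif1a alone was higher in the KO, at 280.2 and 276 CPM against 216 and 225 CPM (0.34 ± 0.18, adjusted p = 0.381).

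The control libraries of day 10 also differed from each other across these genes. Control library 1 was the higher in 7 of 8, by 2.29-fold for Ankrd37, 2.23-fold for Bnip3, 1.78-fold for Adm, 1.67-fold for Egln3 and 1.41-fold for Vegfa, while Hif1a was 0.960 of the level in library 2. Over all genes tested, 50.7% were higher in control library 1. Between those libraries the median gene differed by 1.17-fold, 19.5% of genes differed by more than 1.4-fold and 5.08% by more than 2-fold. The 21 summed glycolysis genes stood at 9648 CPM in control library 1 and at 7056 CPM in control library 2. In the other 6 groups, library 1 was the higher for 3 to 5 of the 8 genes.

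Cell type markers also differed between the control and the libraries labelled Foxk1 KO at day 10. Markers counted as lower are those that passed the test, beside 5.27% of all genes tested. The 7 summed cardiomyocyte markers stood between 3682 and 4180 CPM in the control and between 63.5 and 152 CPM in the KO, and 7 of 7 were lower. The 7 endoderm markers stood between 3508 and 4292 CPM in the control and between 580 and 1365 CPM in the KO. All 7 had a log2 difference below 0, and 4 passed. The 7 fibroblast markers stood between 7725 and 8304 CPM in the control and between 20535 and 26360 CPM in the KO. Of these, 6 of 7 had a log2 difference above 0, and 2 passed. The 7 endothelial markers stood between 264 and 295 CPM in the control and between 212 and 337 CPM in the KO, and 0 of them passed. Their log2 difference was below 0 for 6 of 7, with a median of -0.42. Kdr, the exception, had means of 83.9 CPM in the control and 140.9 CPM in the KO and makes up much of the sum. None of these markers was at 0, and their part in the lower levels of the hypoxia response genes was not tested.

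The comparison of Foxk1 KO with and without IWR1 at day 10 asked how the compound shifted the same genes. With IWR1, Adm and Ankrd37 were higher than in the libraries labelled Foxk1 KO alone, 2 of 8 against 13.9% of all genes tested. The log2 difference was above 0 for 7 of 8, with a median of 0.69 against -0.01 for all genes tested, and in 7 of 8 the groups did not overlap, as in 58.8% of all genes. This comparison and that of KO with control share the same KO libraries, so their values are given side by side and not as independent results.

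Adm stood at 9.07 and 9.34 CPM with IWR1, between the 2.94 and 3.06 CPM of the KO and the 10.4 and 18.5 CPM of the control. The rise over the KO was 3.07-fold (1.62 ± 0.33, adjusted p = 0.0274), and the call was lost without KO library 1 (0.0809) or 2 (0.0740) or IWR1 library 1 (0.0854). Ankrd37 stood at 14.2 and 9.48 CPM with IWR1, a 4.20-fold rise over the KO (2.07 ± 0.45, adjusted p = 0.0323), also lost without KO library 1 (0.0930) or 2 (0.0813) or IWR1 library 1 (0.122). Its IWR1 libraries overlapped the control libraries.

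Egln3 stood at 29.8 and 25.7 CPM with IWR1 (0.91 ± 0.28 over the KO, adjusted p = 0.0778), and Bnip3 at 262 and 160 CPM (1.06 ± 0.44, adjusted p = 0.146). DESeq2 called both, with adjusted p of 0.0242 for Egln3 and 0.0447 for Bnip3. Egln1 stood at 70.1 and 93.6 CPM (0.46 ± 0.25, adjusted p = 0.248) and Vegfa at 59.3 and 65.3 CPM (0.48 ± 0.22, adjusted p = 0.182), above the KO without overlap. Hif1a was the exception once more, at 192 and 194 CPM with IWR1, below the KO (-0.53 ± 0.18, adjusted p = 0.0936). Car9 stood at 0.60 and 1.19 CPM and overlapped the KO (0.13 ± 0.46, adjusted p = 0.867).

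Set against the control, the KO with IWR1 had 0 of 8 genes past the threshold in the edgeR quasi-likelihood test, against 9.12% of all genes tested. At an unadjusted p under 0.05 there was 1, Vegfa (-0.79 ± 0.22, adjusted p = 0.0743), which DESeq2 called (0.0191). In 4 of 8 the groups did not overlap, as in 67.1% of all genes, with Adm, Vegfa, Car9 and Hif1a lower with IWR1 and Egln1, Egln3, Bnip3 and Ankrd37 overlapping. A p that misses the threshold does not show that these levels were alike: the log2 difference was -0.65 for Adm, 0.48 for Ankrd37, -0.72 for Car9, -0.30 for Egln3, -0.21 for Egln1, -0.19 for Hif1a and 0.09 for Bnip3.

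The embryoid bodies with IWR1 also differed from the KO in other cell type markers. The 7 fibroblast markers stood between 1249 and 3392 CPM with IWR1. Against the KO, 6 of 7 passed as lower and 1 as higher, beside 13.9% of all genes tested. The 7 cardiomyocyte markers stood between 292 and 348 CPM with IWR1. The 7 neural markers stood between 196 and 317 CPM with IWR1 and between 38.5 and 64.2 CPM in the KO, where Olig2 was at 0 in at least 1 library. Their part in the levels of the hypoxia response genes was not tested.

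**Figure D3:**
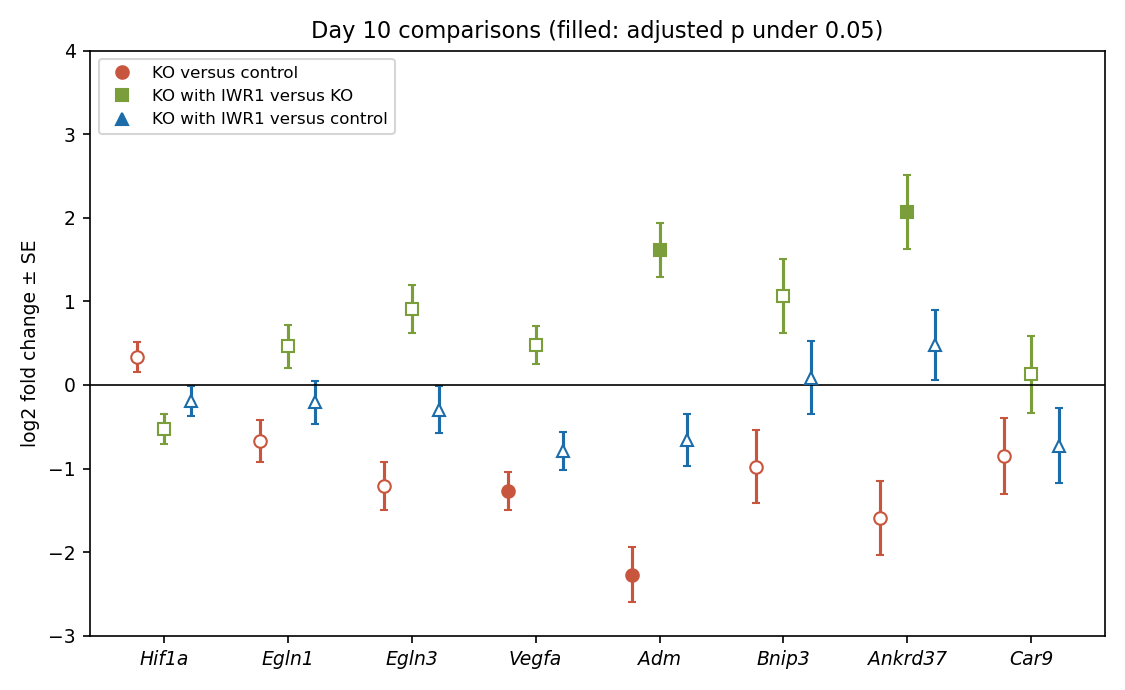
Log2 differences at day 10 for each gene in the KO against control, KO with IWR1 against KO, and KO with IWR1 against control comparisons, with bars of 1 standard error and filled points for an adjusted p under 0.05. Adm lies at -2.27, 1.62 and -0.65 and Vegfa at -1.27, 0.48 and -0.79 in that order; the comparisons share libraries.

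The wider pathway was followed with a list of 15 genes of the HIF machinery (subunits, hydroxylases and ligase components), 36 other HIF targets and 21 genes of glycolysis and glucose uptake. The last list, called the glycolysis genes, also holds genes outside that pathway, such as the adenylate kinase Ak4. The counts that follow are to be read against the shares of all genes tested that were called, 32.9% at day 3, 43.5% at day 5 and 5.27% at day 10. At day 3, 2 machinery genes were higher in the KO and 4 were lower, with a median log2 difference of -0.03. Hif3a, an alpha subunit whose short forms oppose HIF, fell from 61.1 to 34.5 CPM (-0.83 ± 0.11, adjusted p = 4.04e-04), and P4htm, a transmembrane prolyl hydroxylase, rose from 0.792 to 4.3 CPM (2.42 ± 0.39). Egln2, the other prolyl hydroxylase of the family (-0.39 ± 0.10), and Hif1an, which hydroxylates an asparagine of HIF alpha (-0.25 ± 0.06), fell slightly.

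Of the other HIF targets, 34 of 36 were tested at day 3, and 7 were higher and 9 lower in the KO, with a median of -0.01. Ndrg1, a stress-response gene, fell from 31.3 to 8.27 CPM (-1.92 ± 0.12), and Cited2, which competes with HIF for its coactivators, fell from 68.3 to 27.6 CPM (-1.31 ± 0.14). Hmox1, the haem-degrading oxygenase, rose from 40.5 to 94.9 CPM (1.23 ± 0.09). Pam, which amidates peptide hormones such as adrenomedullin, fell from 36.8 to 21.5 CPM (-0.78 ± 0.11).

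Of the 21 glycolysis genes, 9 were higher and 3 lower in the KO at day 3, with a median of 0.16. Slc2a3, a glucose transporter, rose from 343 to 955 CPM (1.47 ± 0.09), Gpi1, a glycolytic isomerase, rose by 0.42 on the log2 scale and Gapdh fell by 0.26. The value for Eno1 is uncertain: it rose from 1329 to 3804 CPM while its near-identical copy Eno1b fell from 2162 to 15.1 CPM, and reads may be split between them.

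At day 5, 1 machinery gene was higher and 6 were lower in the KO, with a median of -0.25. Arnt, the partner of the alpha subunits, fell from 90.5 to 64.5 CPM (-0.49 ± 0.07, adjusted p = 5.29e-04), Siah2, a ubiquitin ligase that acts on the hydroxylases, fell from 13.5 to 7.78 CPM (-0.79 ± 0.23), Egln2 fell by 0.38 and Hif1an fell by 0.30 on the log2 scale. Of 34 other targets, 14 were higher and 6 lower, with a median of 0.22. Flt1, a receptor for Vegfa, rose from 25.1 to 181 CPM (2.85 ± 0.09) while Vegfa fell. Pdgfb, a growth factor for pericytes, rose from 4.46 to 23.7 CPM (2.41 ± 0.20), and Hmox1 rose by 1.26 on the log2 scale.

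Of the 21 glycolysis genes at day 5, 13 were higher and 6 lower in the KO, with a median of 0.42. Pfkfb4, which sets the level of a glycolytic activator, fell from 31.7 to 6.02 CPM (-2.40 ± 0.21). Gpi1 rose by 0.55 and Pgam1, a mutase of glycolysis, by 0.40 on the log2 scale. Eno1 rose from 560.5 to 2110.2 CPM, again with the opposite change in Eno1b, from 881 to 103 CPM.

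At day 10 few genes of the wider pathway passed. Of 36 other targets, 25 had a log2 difference below 0, with 1 called higher, 3 called lower and a median of -0.40. Ppp1r3c, which targets a phosphatase to glycogen, fell from 62.5 to 9.10 CPM (-2.78 ± 0.34), Pam from 247 to 86.2 CPM (-1.52 ± 0.19) and Gys1, the muscle glycogen synthase, from 113 to 50.4 CPM (-1.17 ± 0.24). Lox, which crosslinks collagen and is also a fibroblast product, rose from 68.8 to 371 CPM (2.43 ± 0.43).

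Of the 21 glycolysis genes at day 10, 19 had a log2 difference below 0, with a median of -0.48, and 1 was called. It was Ak4, a mitochondrial adenylate kinase and not a glycolysis enzyme, which fell from 42.4 to 16.3 CPM (-1.38 ± 0.29, adjusted p = 0.0489). Of the 15 machinery genes, 1 was called, Epas1, the HIF alpha subunit typical of endothelium, which fell from 57.5 to 16.4 CPM (-1.81 ± 0.35, adjusted p = 0.0395). The median of the machinery list was 0.00.

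**Figure D4:**
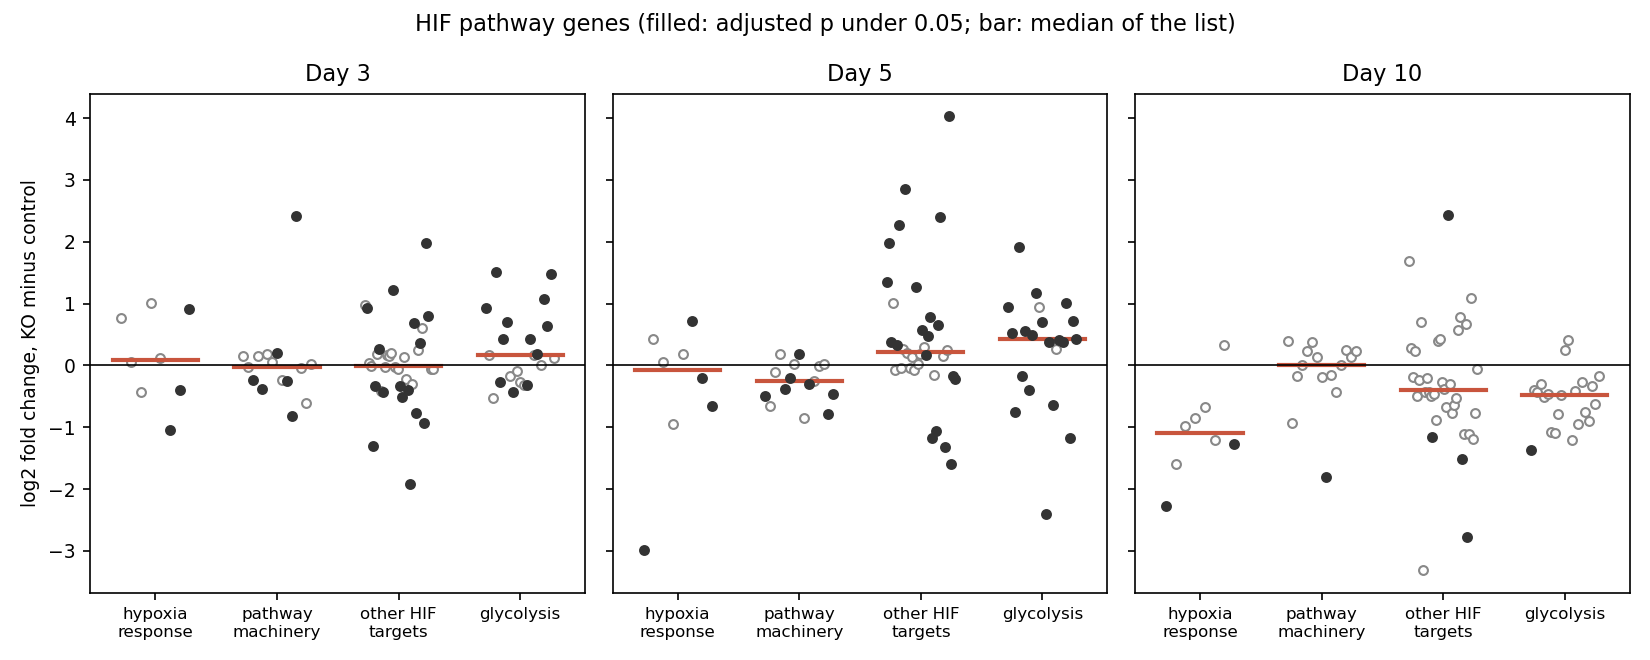
KO minus control log2 difference of every tested gene of the hypoxia response genes and 3 lists of the wider pathway at days 3, 5 and 10; points are genes and bars are list medians. At day 10 the median is -1.09 for the 8 genes, 0.00 for the machinery, -0.40 for other targets and -0.48 for glycolysis.

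The genes most like each gene in pattern were sought by the root mean square (RMS) difference of log2 CPM over the 7 groups, centred within each table so that only differences inside a table count, among 10223 protein-coding genes, for the 5 genes with at least 5 CPM in both tables. For Hif1a the nearest were Nsun3 (RMS 0.0517) and Plin3 (0.0603), and for Egln1 they were Ncs1 (0.0543) and Rnf141 (0.0750). The centred values of Hif1a and Egln1 spanned only 0.588 and 0.671 on the log2 scale, against 3.22 for Vegfa. A small RMS for a gene that varies little is therefore not a closer match than a larger RMS for one that varies more. For Egln3 the nearest were Fgd6 (0.138) and Hes1 (0.165). For Bnip3 they were Zbtb18 (0.0995) and Vangl2 (0.123). For Vegfa they were Nos3 (0.168), the endothelial nitric oxide synthase, and Adgrg1 (0.238).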

How the data were processed

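RNA of 14 libraries was measured by sequencing, and the authors deposited estimated counts per gene as whole numbers in 2 tables, of which the second holds day 10. The submitters' processing notes name kallisto 0.46.2 and mm10; the sources used here do not give the annotation release or the use of strand. Each of the 14 value columns matched 1 sample by name. Symbols and positions came from GENCODE vM21, and promoters from RefSeq (GRCm38.p6). Copies were sought with blastn 2.17.0, at 95% identity or more over at least 150 bases.

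Each table was filtered with filterByExpr (minimum count 10), scaled by TMM, and given 1 fit in edgeR 4.0.16 (R 4.3.3). The day 3 and 5 fit held 14430 genes with 4 residual degrees of freedom, and the day 10 fit 17022 genes with 3. All adjusted p-values are from its two-sided robust quasi-likelihood test, adjusted over every tested gene of a table by Benjamini-Hochberg, with calls made under 0.05, unless DESeq2 1.42.0 is named. Values after ± are standard errors of the log2 difference. CPM uses TMM-scaled library sizes, log2 CPM a prior count of 0.5, and a count of 3 was taken as the detection floor.

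There were 8 contrasts. Alternatives were DESeq2, RLE size factors, no filter, processed pseudogenes removed, only the compared groups in the fit, a replicate block, and leaving out each library. The code was tested on simulated data. The genes and lists were chosen with earlier results of these data known, and the lists carry no test of their own. Values of all 8 genes are given in every contrast. Of each wider list, up to 4 called genes with the smallest p are named per KO contrast, and 1 gene this rule names is not reported here. Of the nearest patterns, 2 are named per gene. Depth was 10574194 to 52747273 counts per library, and intervals cover counting error only.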

Additional observations from a re-analysis of the deposited data

Results flagged for a closer look

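The effect of the KO differed between days 3 and 5 for 4 of the 8 genes, against 24.2% of all genes tested. The test was of the difference itself (day 5 KO effect minus day 3 KO effect, edgeR quasi-likelihood test). For Vegfa the difference was -1.58 on the log2 scale (adjusted p = 3.98e-05): both KO libraries were above both controls at day 3 and below both at day 5. For Egln3 it was 1.76 (adjusted p = 0.00168), with both KO libraries below both controls at day 3 and above both at day 5. For Car9 it was -1.96 (adjusted p = 0.0349), from levels of 0.616 to 3.87 CPM. For Adm it was -3.74 (adjusted p = 0.0353), from 1 to 27 counts per library. The calls of Car9 and Adm were less secure and were lost with DESeq2, while those of Vegfa and Egln3 held in each alternative run.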

How the results depend on the processing

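The day 3 calls of Vegfa, Egln3 and Hif1a, the day 5 call of Vegfa and the differences of effect of Vegfa and Egln3 kept their direction and their side of the threshold in each alternative run. Adm and Car9 at days 3 and 5 rest on few counts, and at day 10 the 2 libraries per group limit the precision. The cause of the changes that follow was not tested.

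With DESeq2, the genes called changed from 4741 to 3010 at day 3, from 897 to 1981 at day 10, from 2358 to 4229 for IWR1 against KO, from 1553 to 3402 for IWR1 against control, and from 3496 to 2313 for the difference of effects. The hypoxia response genes called changed from 2 to 4 at day 10, from 2 to 4 for IWR1 against KO, from 0 to 1 for IWR1 against control and from 4 to 2 for the difference of effects. With no filter on low counts, 1737 genes were called at day 10 (4 of the 8), 3697 for IWR1 against KO and 3093 for IWR1 against control (1 of the 8). With only the compared groups in the fit, 7334 genes were called at day 3 (4 of the 8, with Bnip3 added) and 1001 for IWR1 against KO. At day 5 the genes called changed from 6281 to 4354 (2 of the 8).

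The deviations of same-numbered libraries had correlations from -0.253 to 0.192 between groups. With 2 libraries per group this cannot settle whether the number pairs the samples, and the main fit did not pair them. With the replicate number as a block, 1 of the 8 was called at day 10 (Vegfa at adjusted p = 0.0658), 1233 genes for IWR1 against KO and 948 for IWR1 against control, and the difference of effects for Car9 had an adjusted p of 0.0513.

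Leaving out 1 library gave 2520 to 2572 genes called at day 3 (3 to 4 of the 8), 4030 to 7565 at day 5 (1 to 5), 63 to 838 at day 10 (0 to 1), 548 to 3056 for IWR1 against KO (0 to 2) and 280 to 2145 for IWR1 against control (0). It gave 7005 to 7439 for day 5 against day 3 in the control (3 to 4), 5619 to 8759 in the KO (1 to 4) and 2049 to 5621 for the difference of effects (2 to 4).

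No result that reversed was called. Leaving out 1 library gave, on the log2 scale, -0.13 to 3.51 for Adm at day 3, -0.19 to 0.26 and -0.063 to 0.88 for Ankrd37 at days 3 and 5, and -0.27 to 0.45 for Bnip3 at day 5. For IWR1 against KO it gave -0.43 to 0.55 for Car9, and for IWR1 against control -0.38 to 0.78 for Bnip3 and -0.62 to 0.12 for Egln3. From day 3 to day 5 in the KO it gave -0.48 to 0.34 for Ankrd37 and -0.47 to 0.12 for Bnip3. For the difference of effects it gave -0.12 to 0.82 for Ankrd37 and -0.063 to 0.14 for Egln1. Ankrd37 in the KO from day 3 to day 5, near 0 at 0.0017, was -0.012 with DESeq2, -0.0026 with only the compared groups, -0.019 with no filter, -0.0039 with processed pseudogenes removed and -0.018 with RLE size factors.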

Other observations

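The following genes were chosen after their values were seen. With IWR1 at day 10, 5 of the 36 other HIF targets were called higher and 5 lower than in the libraries labelled Foxk1 KO, against 13.9% of all genes tested called in either direction. The stress-response gene Ddit4, which restrains mTOR signalling, rose from 106 to 286 CPM (log2 difference 1.43 ± 0.26, adjusted p = 0.0211), and Ppp1r3c rose from 9.10 to 23.2 CPM (1.35 ± 0.33, adjusted p = 0.0432). Lox fell from 371 to 9.90 CPM (-5.23 ± 0.50, adjusted p = 0.00675) and P4ha2, a collagen prolyl hydroxylase, fell from 125 to 40.8 CPM (-1.62 ± 0.24, adjusted p = 0.0143).

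Of the 21 glycolysis genes, 4 were called higher with IWR1 and 1 lower, against 13.9% of all genes tested called in either direction. Ldha, which turns pyruvate into lactate, rose from 401 to 1111 CPM (1.47 ± 0.34, adjusted p = 0.0375), and Pfkl, the liver phosphofructokinase, rose from 76.6 to 183 CPM (1.25 ± 0.28, adjusted p = 0.0338). Pfkp, the platelet form, fell from 47.2 to 21.0 CPM (-1.17 ± 0.24, adjusted p = 0.0303). Ak4, the adenylate kinase counted with this list, rose from 16.3 to 49.5 CPM (1.60 ± 0.29, adjusted p = 0.0213). Among the 15 machinery genes, 1 was called, Arnt2, a partner of the HIF alpha subunits typical of neural cells, which rose from 12.9 to 40.5 CPM (1.65 ± 0.28, adjusted p = 0.0187). The 7 summed neural markers stood between 38.5 and 64.2 CPM in the KO and between 196 and 317 CPM with IWR1, and their part in this value was not tested.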
